A study of Mus musculus with 18 samples.

Results

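The late step of reprogramming was examined by setting 2 female induced pluripotent stem cell (iPSC) samples against 2 samples of SSEA1-positive (SSEA1+) intermediates, also female. DNA methylation was read by reduced representation bisulfite sequencing over fixed windows of 1 kb, called tiles here. A tile was a member when it lay on an autosome and held at least 3 CpGs with 5 or more reads in each of these 4 samples. That rule, which uses read depth and not methylation, kept 42665 of the 274183 autosomal tiles with any CpG at that depth in the 18 samples of the series, and 32195 of them were held by all 18. The other samples were used as end points on the same tiles: female embryonic fibroblasts (MEF, n = 4), male MEF (n = 2), SSEA1-negative (SSEA1−) intermediates (n = 2, female), female embryonic stem cells (ESC, n = 4) and male ESC (n = 2). The labels give the cell type and the sex of each sample. Strain, age, the reprogramming factors, the day of sorting, the passage and the number of iPSC lines are not stated in the labels, which also do not say whether samples of a group were separate cultures. A methylation level is the percentage of reads at a CpG or tile that were methylated, and a difference in points is iPSC minus SSEA1+ on that scale. A tile was called lower or higher in iPSC at a difference of at least 20 points and an adjusted p under 0.05 (quasi-binomial model over all 42665 tiles, dispersion moderated with the method of limma, Benjamini-Hochberg adjustment).

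Methylation of cytosine in CpG pairs is copied at each cell division by the maintenance enzyme Dnmt1 and can be lost by dilution or by oxidation through the Tet enzymes. SSEA1 is a carbohydrate antigen on the surface of mouse pluripotent cells, and cells that display it during reprogramming are enriched for those that go on to become iPSC. In fibroblasts most CpGs outside CpG islands are methylated, islands at gene starts are mostly free of it, and the promoters of many germline genes are an exception, methylated in somatic cells although they are rich in CpG.

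Of the 6469 tiles that held the start site of a gene that could be placed, 61 (0.943%) were called lower and 127 (1.96%) higher. Among them were start-site tiles of 8 genes from a list of 40 genes of germ cells and meiosis, of which 5 were called lower. Their promoters are shown because they carried the largest lower differences of any gene list looked at. Each runs from 250 bases before to 50 bases after the start, 5′ to 3′ on the gene's strand, from RefSeq (GRCm38.p6), and its mm9 position comes from matching its CpG spacing to the CpGs of the data. Capitals mark the CpGs that reached 5 reads in at least 1 iPSC and at least 1 SSEA1+ sample.
Mael, chr1:168168826-168169125, minus strand: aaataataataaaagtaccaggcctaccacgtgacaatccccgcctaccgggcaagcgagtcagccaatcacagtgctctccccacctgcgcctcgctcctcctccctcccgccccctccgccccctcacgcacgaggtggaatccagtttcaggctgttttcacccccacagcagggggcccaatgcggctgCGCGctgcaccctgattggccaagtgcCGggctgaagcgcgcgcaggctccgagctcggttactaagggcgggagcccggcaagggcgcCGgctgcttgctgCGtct
D1Pas1, chr1:188791045-188791344, plus strand: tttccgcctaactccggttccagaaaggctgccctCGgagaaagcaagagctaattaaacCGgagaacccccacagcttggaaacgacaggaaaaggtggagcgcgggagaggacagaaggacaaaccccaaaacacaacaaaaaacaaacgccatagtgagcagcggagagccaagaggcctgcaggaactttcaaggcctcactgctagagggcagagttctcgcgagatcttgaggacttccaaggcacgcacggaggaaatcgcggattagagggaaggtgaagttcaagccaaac
Slc25a31, chr3:40512543-40512842, plus strand: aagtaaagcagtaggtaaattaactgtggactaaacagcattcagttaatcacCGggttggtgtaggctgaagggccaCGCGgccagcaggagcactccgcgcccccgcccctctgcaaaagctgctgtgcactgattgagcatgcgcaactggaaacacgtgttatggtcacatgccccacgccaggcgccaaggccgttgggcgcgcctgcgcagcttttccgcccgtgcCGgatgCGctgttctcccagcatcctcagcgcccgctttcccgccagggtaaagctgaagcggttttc
Ddx4, chr13:113442469-113442768, minus strand: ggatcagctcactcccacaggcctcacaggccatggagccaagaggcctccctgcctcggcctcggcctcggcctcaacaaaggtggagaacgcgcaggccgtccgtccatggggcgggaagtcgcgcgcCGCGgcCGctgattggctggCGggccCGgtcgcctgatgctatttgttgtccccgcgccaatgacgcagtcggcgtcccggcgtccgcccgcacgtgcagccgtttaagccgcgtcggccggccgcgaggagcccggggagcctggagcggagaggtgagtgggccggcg
Hormad2, chr11:4341036-4341335, minus strand: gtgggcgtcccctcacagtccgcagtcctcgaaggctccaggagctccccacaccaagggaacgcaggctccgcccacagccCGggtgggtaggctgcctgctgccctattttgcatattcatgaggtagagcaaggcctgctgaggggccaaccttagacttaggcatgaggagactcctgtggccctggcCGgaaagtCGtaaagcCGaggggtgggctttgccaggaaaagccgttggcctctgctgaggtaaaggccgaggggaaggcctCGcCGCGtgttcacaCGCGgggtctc

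The promoters hold 24 CpGs in Mael, 15 in D1Pas1, 22 in Slc25a31, 38 in Ddx4 and 16 in Hormad2. TCCCGC, the core letters of E2F-type sites, was searched on both strands (as TCCCGC or GCGGGA) and occurs in 20.2% of 31396 autosomal promoter sequences of this length. It is found 2 times in the Mael promoter, once each in those of D1Pas1, Slc25a31 and Ddx4, and not in that of Hormad2. CACGTG, the letters of an E-box, reads the same on both strands and occurs in 7.14% of the promoters. It is present once in Mael, Slc25a31 and Ddx4 and not in the D1Pas1 and Hormad2 windows, and the motifs shared no base. These matches describe the letters of the windows, and binding was not measured.

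Mael, a protein of the piRNA pathway that keeps transposons silent in germ cells, had the largest difference of the list. Its start-site tile (chr1:168168001-168169000) was 17.3% and 17.2% methylated in the iPSC samples and 78.8% and 90.8% in the SSEA1+ samples. The groups were thus far apart, by -67.6 points (adjusted p = 2.73e-06), with 76 to 301 reads in each of the 4 samples. Female MEF were between 72.6% and 89.9% and female ESC between 8.15% and 21.5%, so the SSEA1+ values lay at the MEF end and the iPSC values within the ESC range. D1Pas1, a DEAD-box RNA helicase of the testis, read 21.3% and 14.5% in iPSC against 88.9% and 69.2% in SSEA1+ at its tile (chr1:188791001-188792000), a difference of -61.2 points (adjusted p = 2.65e-05). The lowest depth there was 39 reads.

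Slc25a31, the ADP/ATP carrier of male germ cells, was 36.3% and 28.0% methylated in iPSC against 95.3% and 83.3% in SSEA1+ (chr3:40512001-40513000; -57.2 points, adjusted p = 1.82e-07). Male ESC were higher than the iPSC samples there, at 56.6% and 61.1%. Ddx4, the germ cell RNA helicase also known as Vasa, read 26.6% and 19.4% in iPSC and 88.4% and 70.7% in SSEA1+ (chr13:113442001-113443000; -56.6 points, adjusted p = 2.37e-07). In Hormad2, a component of the meiotic chromosome axis, the values were 16.8% and 16.8% against 46.9% and 41.9% (chr11:4341001-4342000; -27.6 points, adjusted p = 0.00185). The iPSC and SSEA1+ samples did not overlap at any of these genes, as was the case at 8554 of the 8570 tiles called lower. Female MEF lay at 59.1% to 96.8% at D1Pas1, Slc25a31 and Ddx4 and at 41.0% to 57.9% at Hormad2, and female ESC at 8.39% to 30.1% and at 2.51% to 6.04%. Without SSEA1+ sample 1 the Hormad2 tile was no longer called (-25.1 points), and the other 4 were.

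The 3 remaining tiles of the list were not called. At Tex101, a cell surface protein of the testis, iPSC read 75.6% and 73.4% and SSEA1+ 90.7% and 92.9% (-17.3 points), male ESC 96.5% and 91.7%, and female ESC 50.6% to 69.0%. Dazl, an RNA-binding protein of germ cells, was at 21.2% and 17.1% in iPSC and 22.4% and 9.4% in SSEA1+, and Smc1b, a meiotic cohesin subunit, at 13.6% and 10.8% against 9.12% and 2.48%. Both were low in SSEA1+ too, and female MEF had 20.6% to 44.0% at Dazl and 17.5% to 56.4% at Smc1b. The lowest female MEF sample at each was female MEF 2. Male MEF 1 was lower still, at 14.2% at Dazl and 12.5% at Smc1b. Both samples share the library type of SSEA1+ (described below). At the CpGs that iPSC read at Smc1b, iPSC were at 12.1% and female MEF 3 and 4 at 53.9%. Whether methylation was lost there before the SSEA1+ stage was not tested. The median difference of the 8 tiles was -42.1 points, against 3.29 points over all start-site tiles. These sets differ in starting level, with medians in female MEF of 74.9% and 0.734%. At a starting level of 50% or more in female MEF, 36 of 102 start-site tiles were called lower.

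**Figure D1:**
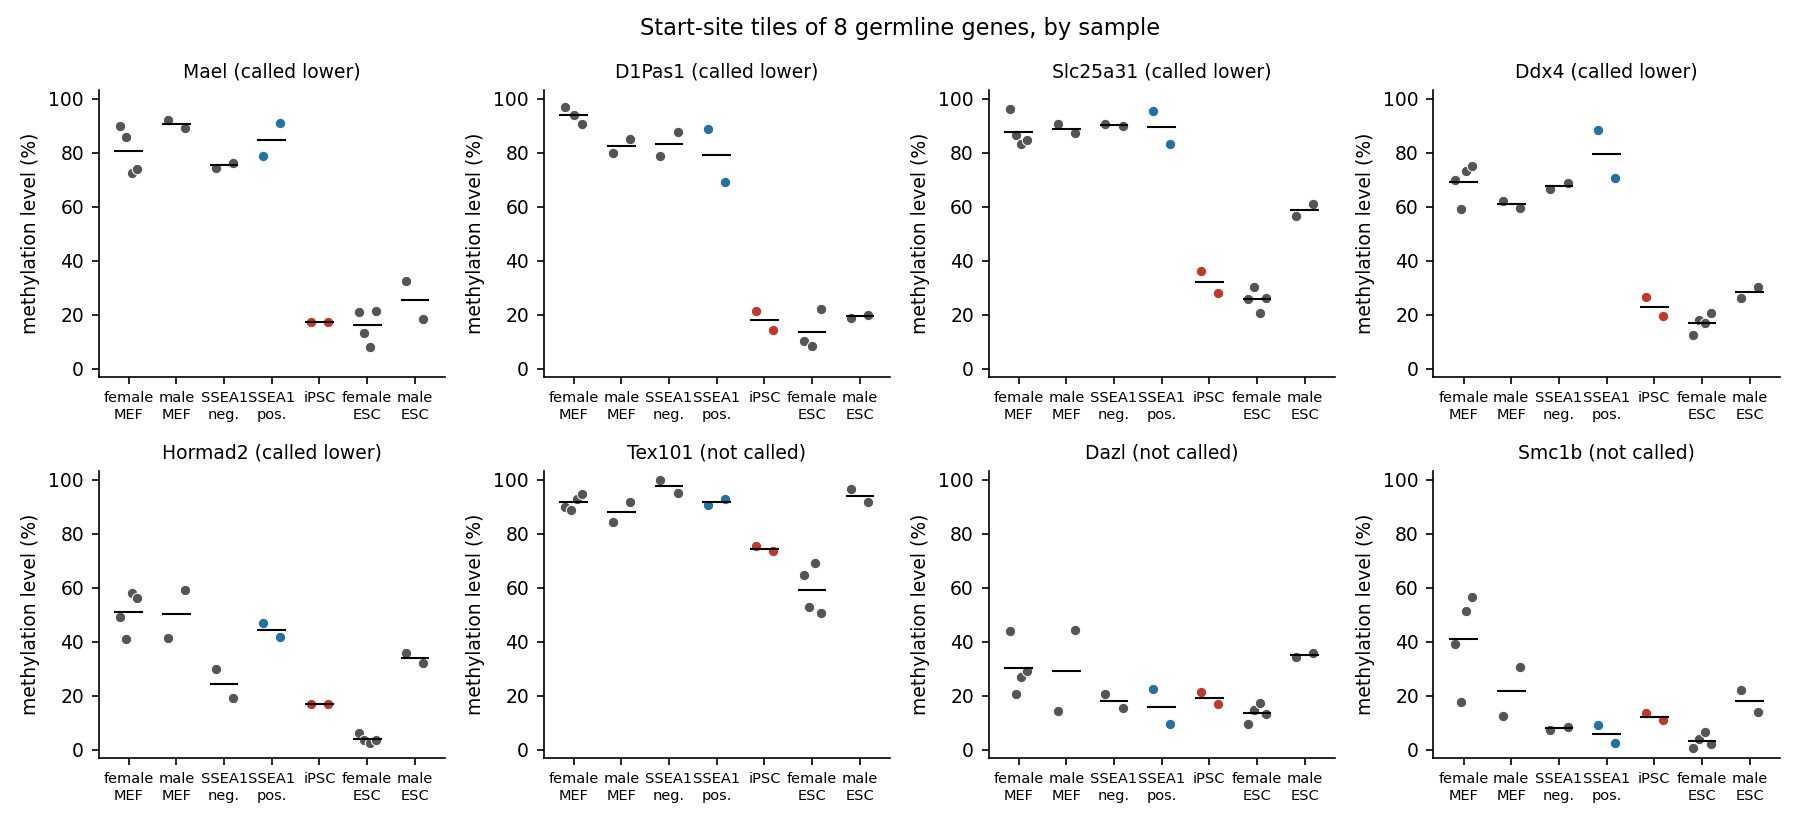
Methylation level (%, y axis) of the start-site tiles of 8 germline genes in each sample (points) of the 7 groups (x axis), with group means as lines. At Mael, D1Pas1, Slc25a31, Ddx4 and Hormad2 the iPSC samples (red) sit below both SSEA1+ samples (blue), by 27.6 to 67.6 points in the mean.

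The 2 groups read partly different CpGs in these tiles. In the Mael promoter window, for example, part of which lies past the end of the start-site tile, the iPSC samples had 7 CpGs at 5 or more reads each and the SSEA1+ samples 12 and 8, of which 1 was shared by all 4. Over that window the levels were 29.3% and 29.5% in iPSC and 80% and 90.8% in SSEA1+. None of the 5 tiles had enough CpGs in common for a test on shared CpGs alone, and the part played by the choice of CpGs in these differences was not tested.

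The libraries differ in a way that follows the groups. The iPSC libraries held 31492063 and 34513354 reads over CpGs and the SSEA1+ libraries 23566525 and 11833113, with medians of 199, 226, 162 and 63 reads per tile. The share of CpGs read on both strands was 7.25% and 7.35% in iPSC and 15.9% and 15.2% in SSEA1+. Across the series this share fell into 3 ranges, called library types here. Type C (7.25% to 7.46%) holds the iPSC samples and female MEF 3 and 4. Type B (15.2% to 16.05%) holds the SSEA1+ and SSEA1− samples, female MEF 2 and male MEF 1, and type A (9.03% to 11.7%) all others. Because iPSC and SSEA1+ share no type, type and group cannot be told apart in their direct comparison. MEF were read in every type, so a fit with library type as a term uses MEF as the link, and results are given with that fit beside them. Its differences in points are a least-squares contrast of tile levels, whereas its p-values come from the quasi-binomial model. Size and p-value therefore need not go together in that fit. With it, 5 germline tiles were again called lower, Mael (-53.3 points), Slc25a31 (-51.5), Ddx4 (-68.2), Hormad2 (-46.2) and Tex101 (-23.8), while D1Pas1 (-56.6 points, adjusted p = 0.636) was not. At 5781 tiles that were under 1% in all 4 male libraries, the medians of the iPSC samples were 3.20% and 3.44% and those of every other sample at most 0.728%, so the iPSC samples read above 0 where the others read near 0.

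Over the 61 start-site tiles called lower, 38 were called in both fits, and leaving out SSEA1+ sample 1 left 37. Of 102 start-site tiles at 50% or more in female MEF, 36 were called lower. Among those named by size (with 5 CpGs and 50 reads in each sample, also called on shared CpGs) was Dmrtb1, a transcription factor of the male germ line that is not on the germline list. Its tile (chr4:107356001-107357000) was 34.8% and 35.1% methylated in iPSC and 79.8% and 88.5% in SSEA1+ (-49.2 points, adjusted p = 3.64e-08), with female ESC at 18.0% to 21.5%. 4933428G20Rik (chr11:97361001-97362000) read 13.4% and 13.3% against 59.9% and 47.9%. Slc6a16, an orphan member of the neurotransmitter transporter family (chr7:52496001-52497000), read 7.78% and 7.60% against 37.0% and 45.3%. The iPSC samples were nearly equal to each other at these 3 tiles.

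Thap7, which encodes a THAP domain protein that binds chromatin (chr16:17531001-17532000), had another pattern. It was at 6.90% and 5.96% in iPSC and 39.3% and 38.5% in SSEA1+ (-32.5 points, adjusted p = 3.02e-08), and SSEA1− had 46.2% and 36.0%. Female MEF were at 0 to 8.57% and female ESC at 0 to 1.20%, so both intermediates stood above the start and the end cell types at this tile. Pstpip1, an adaptor of the actin cytoskeleton (chr9:55937001-55938000), was 18.7% and 18.4% against 46.7% and 54.7% (-32.2 points) and lost its call with library type as a term (-8.24 points, adjusted p = 0.735). Gm16617 (-32.0 points) and Gm52830 (-30.9 points) kept theirs. The tile of Gm35240, the largest by this rule (-63.2 points), belongs to the recurrent tiles described next. Chosen after their values were seen, 3 further genes of sperm formation were among the 61: Hsf5, a heat shock factor of spermatocytes (11.6% and 10.7% against 85.8% and 42.7%), Boll, of the DAZ family (13.8% and 10.8% against 43.7% and 41.9%), and the tile of Tnp1, transition protein 1 of condensing sperm chromatin (26.2% and 27.0% against 86.9% and 85.5%). Hsf5 and Boll were called in both fits and Tnp1 was not.

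Much of the lower methylation lay in sequence that recurs in the genome. CpG positions were used to see this, because tiles that hold copies of the same sequence show the same distances between neighbouring CpGs. A run of 5 CpGs, spanning at most 400 bases, was called recurrent when its 4 distances occurred 20 or more times among all CpGs with a read. Of the 42665 tiles, 6093 were recurrent (at least 3 runs, and the larger part of them or an equal part recurrent), and 3332 of these (54.7%) were called lower and 12 higher, against 20.1% and 4.34% of all tiles. They made up 38.9% of all tiles called lower. Of 24637 tiles with other spacing, 11.6% were called lower. At a like starting level the shares lay closer together: among tiles at 80% or more in female MEF, 59.9% of 5305 recurrent and 39.4% of 4336 other tiles were called lower. No repeat annotation of mm9 was used, so the sequences are not named, and how reads that match several copies were placed is not given in the sources used here. Copies of a sequence are also not independent of each other.

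The run found in the most tiles had distances of 4, 21, 12 and 45 bases. With other runs that lay mostly in its tiles, it defined a group of 2158 tiles on all 19 autosomes, called spacing family 1. Nearly every one of them, 2117 (98.1%), was called lower, which is 24.7% of all tiles called lower, and 2030 were called in both fits. Their median level was 23.8% and 23.1% in iPSC and 84.5% and 83.9% in SSEA1+. SSEA1− (85.9% and 85.9%) and female MEF (87.5% to 88.1%) were close to SSEA1+, and female ESC (23.3% to 24.0%) held the iPSC level. Male ESC were higher, at 37.1% and 37.1%. The median difference was -60.3 points, and 90% of the tiles lay between -70.1 and -45.5 points, so the spread among copies was small beside the difference. At a minimum of 10 reads 531 were tested and 498 called. The dense tile on chr2:17052001-17053000 is an example, with 20.3% and 19.4% in iPSC and 87.3% and 82.4% in SSEA1+.

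Family 2 (2039 tiles, distances of 7, 5, 4 and 29 bases) stayed much higher. Its medians were 70.7% and 71.1% in iPSC against 87.4% and 87.3% in SSEA1+, and both female ESC (69.8% to 71.7%) and male ESC (69.2% and 69.5%) were at the iPSC level. With a median difference of -16.3 points, most of its tiles lay under the size that a call needs, and 348 (17.1%) were called lower. Only 19 reached 30 points. Of the 348, 163 were also called with library type as a term. Gm36816 is a predicted gene whose promoter holds 6 CpGs in this spacing, printed here in capitals (RefSeq, GRCm38.p6, 5′ to 3′), to show what such a copy looks like.
Gm36816, chr6:66958932-66959231, minus strand: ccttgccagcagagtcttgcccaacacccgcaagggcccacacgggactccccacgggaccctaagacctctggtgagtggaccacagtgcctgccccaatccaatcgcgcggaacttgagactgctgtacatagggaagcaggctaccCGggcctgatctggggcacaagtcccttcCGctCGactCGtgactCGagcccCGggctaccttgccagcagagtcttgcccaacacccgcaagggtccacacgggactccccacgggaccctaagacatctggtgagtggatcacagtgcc
Over the marked CpGs that reached 5 reads, iPSC read 74.7% and 68.4% (79 and 76 reads at 2 CpGs each) and SSEA1+ 89.7% and 90% (68 reads at 6 CpGs and 20 reads at 2). Female MEF read 84.4% to 96.5% there and female ESC, at 15 to 21 reads, 38.9% to 66.7%. The marked CpGs lie past the end of the tile that holds the gene's start (chr6:66958001-66959000). That neighbouring tile was 68.5% and 64.9% methylated in iPSC and 89.7% and 88.1% in SSEA1+, a difference of -22.2 points (adjusted p = 4.45e-06), and was not called with library type as a term or on shared CpGs. Family 1, by contrast, had no promoter sequence that could be shown.

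Family 3 (820 tiles, distances of 5, 8, 10 and 16 bases) lay between the ESC of the sexes. Its medians were 68.5% and 68.2% in iPSC, 90.1% and 89.5% in SSEA1+, 44.4% to 48.3% in female ESC, and 92.7% and 92.6% in male ESC. In the direct comparison 457 of its tiles (55.7%) were called lower. This count was 201 without SSEA1+ sample 1 and 88 with library type as a term, and 69 were called in both fits. The 3 families thus differ in the iPSC level they reached although their medians were between 87.5% and 93.5% in every female MEF sample, and in whether male ESC were at that level too.

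**Figure D2:**
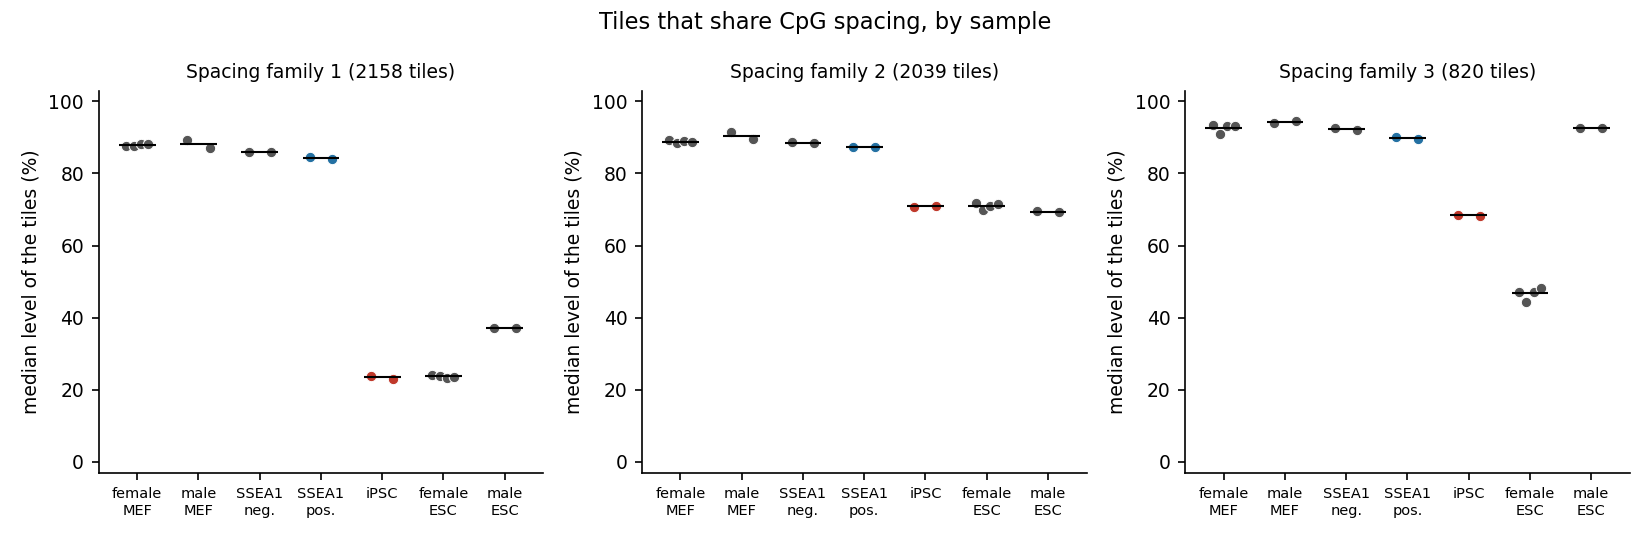
Median methylation level (%, y axis) of the tiles in spacing families 1, 2 and 3 in each sample (points) of the 7 groups (x axis), with group means as lines. In iPSC (red) family 1 falls to 23.1% to 23.8%, family 2 to 70.7% to 71.1% and family 3 to 68.2% to 68.5%, from SSEA1+ levels (blue) of 83.9% to 90.1%.

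Over all autosomal tiles, 8570 (20.1%) were called lower and 1850 (4.34%) higher in iPSC. The samples of the groups did not overlap at 8554 and 1831 of them. With 2 samples a group, a call at 20 points makes this likely, so the counts add no support. The share over all tiles is not given here. The median difference of the tiles called lower was -37.0 points and that of the tiles called higher 31.2 points. With library type as a term, 6220 of 41478 tiles (15%) were called lower and 508 (1.22%) higher. The fits shared 5055 lower tiles (59.0% of the 8570) and 373 higher tiles (20.2% of the 1850). On shared CpGs alone, 90.1% of the lower and 80.5% of the higher tiles that could be tested were called again. Without SSEA1+ sample 1, 5950 tiles were called lower, and 1408 higher.

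Over the 258060 CpGs at 5 reads in all 4 samples, the mean level was 42.1% and 41.2% in iPSC (41.7% ± 0.63, SD, n = 2) and 49.6% and 47.9% in SSEA1+ (48.7% ± 1.23, SD, n = 2). The difference was -7.09 points with no overlap (exact 2-sided permutation test, p = 0.333, the smallest that 2 against 2 allows). It was -3.48 points when each read counted equally and 6.83 points, the other direction, when each sample was averaged over its own CpGs. Over tiles that were not called the group means were 28.7% and 28.7%, which follows in part from leaving out the called tiles. Equal means do not show that single tiles were unchanged. Over all tiles the median difference was 3.48 points for those under 10% in female MEF and -17.7 points for those at 80% to 90%.

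On the 6143 lower tiles held by every sample, iPSC read 38.3% ± 0.847 (SD, n = 2) and SSEA1+ 80.4% ± 0.855 (SD, n = 2). SSEA1− (81.0% ± 0.133, SD, n = 2) and female MEF (81.7% ± 0.154, SD, n = 4) were at the SSEA1+ level. At these tiles the SSEA1+ intermediates were thus near the fibroblast level. A high SSEA1+ level follows in part from how the tiles were picked, with SSEA1+ at least 20 points above iPSC. That applies also to the values within a library type given next, which come from the same samples. Values within a library type gave the same picture: at the same CpGs, the median of the lower tiles was 39.8% in iPSC and 86.9% in female MEF 3 and 4, and 84.9% of the tiles were at least 20 points lower in iPSC. In SSEA1+ against female MEF 2, also of a shared type, the median difference at these tiles was -1.44 points, and 2.15% were at least 20 points lower.

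**Figure D3:**
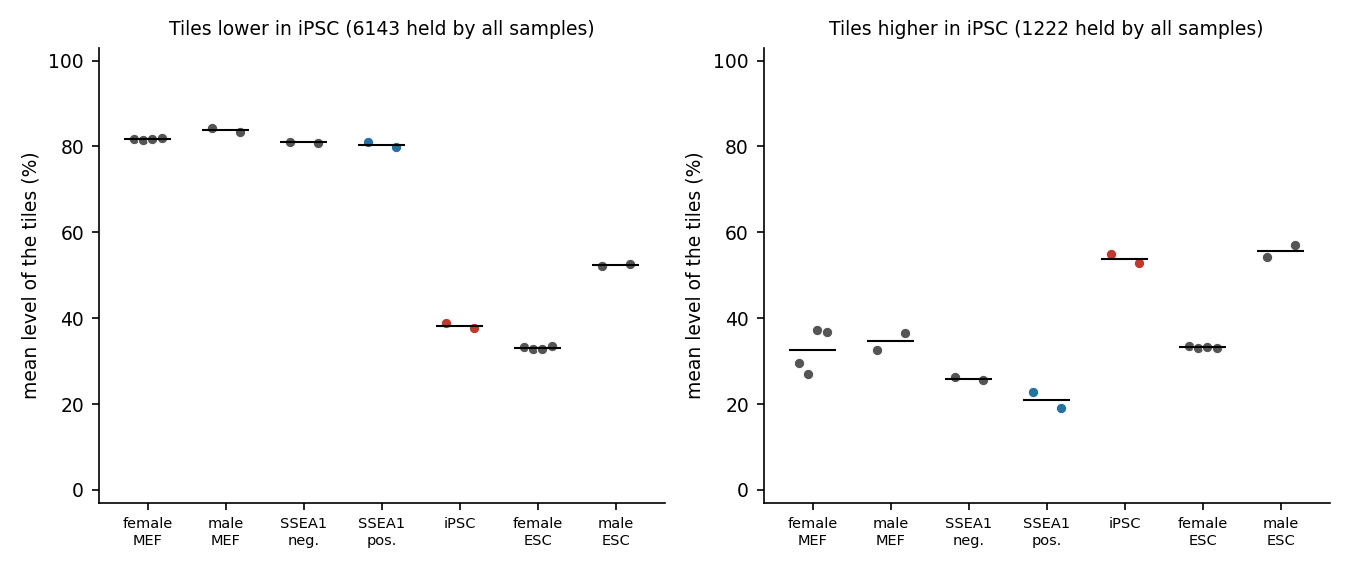
Mean methylation level (%, y axis) per sample (points) of the 6143 tiles called lower and the 1222 tiles called higher in iPSC that every sample held, by group (x axis) with group means as lines. At the lower tiles the iPSC samples are at 37.7% to 38.9% and all MEF, SSEA1− and SSEA1+ samples between 79.8% and 84.2%; at the higher tiles female MEF range from 27.0% to 37.3%.

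The largest lower differences named by the rule were at single tiles outside the families. At chr8:97852001-97853000, whose centre lies 3210 bases from the placed start of the zinc finger gene Zfp319, iPSC read 13.7% and 6.64% and SSEA1+ 92.9% and 95.6% (-84.1 points, adjusted p = 4.7e-08). At chr5:110534001-110535000 the values were 18.3% and 12.7% against 96.2% and 100% (-82.6 points). The tile at chr6:48547001-48548000, 4505 bases from the placed start of the zinc finger gene Zfp775, read 12.8% and 18.7% against 97.0% and 96.8% (-81.2 points). Female ESC were low at these tiles too, at 6.51% to 17.2%, and female MEF were at 71.3% to 99.4%.

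The others were at chr5:93371001-93372000 (4.18% and 5.598% against 85.4% and 89.6%), chr11:5617001-5618000 (17.7% and 17.0% against 94.8% and 95.7%), chr4:40174001-40175000 (9.12% and 10.4% against 95.7% and 77.3%) and chr5:143549001-143550000 (14.4% and 15.8% against 93.3% and 90%). All of these were called with library type as a term. A further one, chr18:83201001-83202000, read 8.55% and 11.97% against 89.6% and 93.0%, but female MEF 3 and 4, of the iPSC library type, were at 29.96% and 39.2% where female MEF 1 and 2 were at 84.6% and 73.6%. Its difference was -81.0 points in the direct fit and -41.9 points with library type as a term. Among tiles of 30 or more CpGs, the 5 largest lower ones (chr1:116454001-116455000, chr2:17052001-17053000, chr5:16752001-16753000, chr3:55413001-55414000 and chr3:78299001-78300000) all belonged to family 1, at -65.2 to -62.1 points.

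The chance of a call went with the level in female MEF. Of tiles under 10% there, 0.127% were called lower, against 17.4% of those at 40% to 50%, 42.4% at 80% to 90% and 40.1% at 90% to 100%. Higher calls were most frequent, 22.4%, among tiles at 20% to 30% in female MEF, and made up 0.713% of those at 90% to 100%. The ends of this scale follow in part from the rule for a call. A lower call needs at least 20% in SSEA1+, whose mean was 1.40% at tiles under 10% in female MEF. A higher call needs 20 points of room above SSEA1+, whose mean was 87.7% at tiles at 90% to 100%. Tiles near genes were mostly unmethylated at the start, and 1.18% of those with their centre within 1000 bases of a placed start were called lower. That share was 14.9% at 1000 to 5000 bases, 22.6% at 5000 to 20000, 20.9% at 20000 to 100000 and 30.2% beyond. By CpG number it was 21.3% in tiles with a mean of 3 to 5 CpGs in the 4 samples, 24.5% at 5 to 10, 18.7% at 10 to 20, 9.995% at 20 to 30 and 2.04% at 30 or more. These classes differ in starting level too, with female MEF means of 67.2% at 3 to 5 CpGs and 3.16% at 30 or more. By chromosome the share called lower ran from 15.4% on chromosome 11 to 24.7% on chromosome 18.

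**Figure D4:**
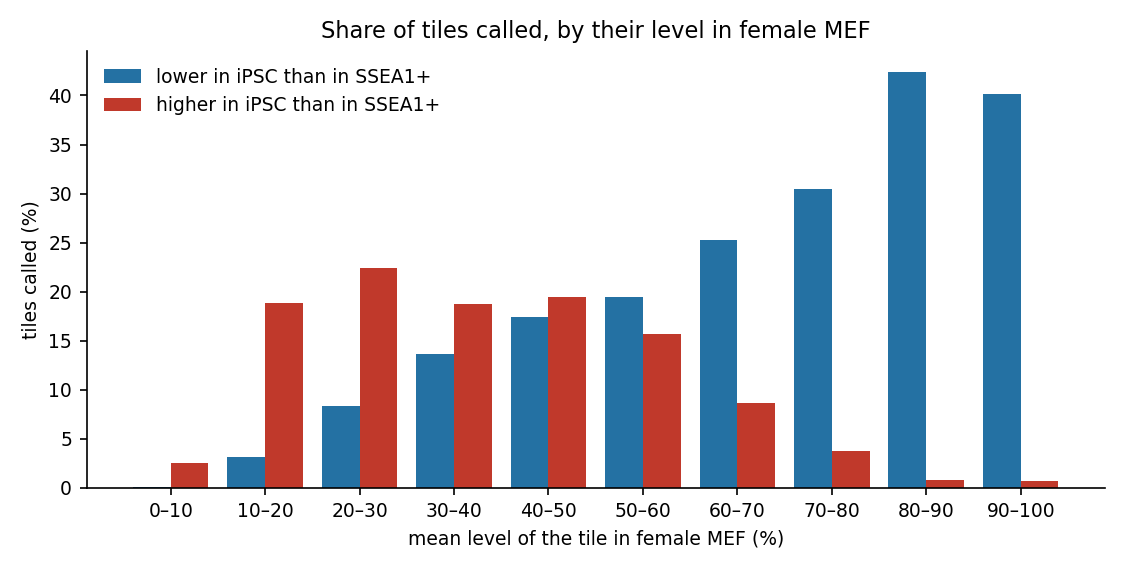
Share of tiles (%, y axis) called lower (blue bars) or higher (red bars) in iPSC than in SSEA1+, in classes of 10 points of the mean level in female MEF (x axis). Lower calls rise to 42.4% of tiles at 80% to 90%, and higher calls peak at 22.4% of tiles at 20% to 30%. A call needs a difference of 20 points, which limits lower calls at the low end and higher calls at the high end.

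The same tiles were then read in the end points. Female ESC were lower than female MEF at 16314 of 41746 tiles (39.1%) and higher at 447 (1.07%), and male ESC lower than male MEF at 6859 of 41278 (16.6%) and higher at 1805 (4.37%). Of the 8570 tiles lower in iPSC, 7438 (86.8%, and 45.6% of the female ESC tiles) were lower in female ESC and 4774 (55.7%, and 69.6% of the male ESC tiles) in male ESC. There were 4513 lower in both, 2925 in female ESC alone and 871 in neither. At 7947 lower tiles measured in both kinds of ESC, the iPSC mean lay at or below female ESC at 2453, between female and male ESC at 4750 and above both at 744. The iPSC mean thus lay mostly between the ESC of the 2 sexes at these tiles. This position is not particular to them. Over all tiles held by every sample the means were 31.51% in iPSC, 23.85% in female ESC and 35.65% in male ESC.

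The lower tiles were also split by whether male ESC were called lower than male MEF. At the 4774 that were, the mean over the 4108 tiles held by all samples was 31.2% in iPSC, 28.2% in female ESC, 41.2% in male ESC and 79.5% in SSEA1+. At the other 3796, with 2035 held by all samples, it was 52.5% in iPSC, 43.0% in female ESC, 74.9% in male ESC and 82.2% in SSEA1+. The male ESC values follow from the split, which does not show that there are 2 kinds of tile. A further 8876 tiles were lower in female ESC than in female MEF and not called lower in iPSC. Their medians were 70.6% in iPSC, 78.7% in SSEA1+, 84.5% in female MEF, 49.8% in female ESC and 82.8% in male ESC. That iPSC were not far below SSEA1+ at these tiles follows from how they were picked.

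Imprinted genes carry methylation on the copy from 1 parent at their control regions, which gives intermediate levels in somatic cells. Of 8 imprinted start-site tiles tested, from a list of 31 genes, 3 were called lower and none higher, against 0.943% and 1.96% of all start-site tiles. Most start-site tiles were under 10% in female MEF, whereas the 3 called ones had means of 36.5% to 43.5% there. Of all tiles at 30% to 40% in female MEF 13.7% were called lower, and of those at 40% to 50%, 17.4%. Zrsr1, an imprinted splicing factor gene inside Commd1 (chr11:22872001-22873000), read 9.47% and 18.4% in iPSC and 33.3% and 41.1% in SSEA1+ (-23.3 points, adjusted p = 0.000453). Mcts2, a retrogene related to a translation factor (chr2:152512001-152513000), read 7.96% and 23.1% against 39.3% and 35.8% (-22.0 points, adjusted p = 0.00751). Plagl1, a zinc finger regulator of growth (chr10:12810001-12811000), read 11.1% and 19.4% against 40.1% and 31.5% (-20.5 points, adjusted p = 0.00282). In each case iPSC sample 1 was the lower of the pair, and without it none of the 3 was called. Without SSEA1+ sample 1, 1 was called.

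Female ESC were at 0 to 3.05% at these 3 tiles and male ESC at 20.8% to 49.7%, and female MEF at 34.5% to 50.1%. The iPSC samples were therefore below MEF and above female ESC at each gene. With library type as a term the same 3 genes were called, but on shared CpGs only Mcts2 was. At Plagl1 all 5 CpGs that the iPSC samples read lay in the 300 bases of the promoter, where SSEA1+ read 12.9% and 13.8%, and the difference on shared CpGs was -1.10 points. Igf2r, the scavenger receptor for insulin-like growth factor 2 (chr17:12962001-12963000), was at 6.40% and 5.98% against 28.5% and 15.3% (-15.7 points) and was not called.

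Tiles higher in iPSC were fewer, and a smaller share of them than of the lower tiles was also called with library type as a term. On the 1222 held by every sample, iPSC were at 53.8% ± 1.47 (SD, n = 2), SSEA1+ at 20.9% ± 2.56 (SD, n = 2) and SSEA1− at 25.9% ± 0.374 (SD, n = 2). Female MEF 3 and 4, of the iPSC library type, were at 37.3% and 36.8%, above female MEF 1 and 2 at 29.5% and 27.0%. At the same CpGs, the median of the higher tiles was 58.5% in iPSC and 36.0% in female MEF 3 and 4, and 41.4% of them were at least 20 points higher. Male ESC were at 55.6% and female ESC at 33.2%. Of the 1850, 795 (43.0%, and 44.0% of the male ESC tiles) were higher in male ESC than in male MEF, 306 (16.5%, and 68.5% of the female ESC tiles) were higher in female ESC than in female MEF, and 251 were lower in female ESC.

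The 8 largest higher differences split by what female MEF 3 and 4 showed. At chr8:19493001-19494000 iPSC read 78.3% and 76.0% and SSEA1+ 6.49% and 5.99%, and female MEF 3 and 4 read 92.0% and 93.1% where female MEF 1 and 2 had 25.7% and 6.55%. The tiles at chr6:71633001-71634000 (76.6% and 72.7% against 6.05% and 7.05%), chr15:7925001-7926000 (76.9% and 76.5% against 9.79% and 8.65%) and chr1:136049001-136050000 (70.1% and 68.1% against 7.29% and 2.68%) showed the same split, with female MEF 3 and 4 at 72.8% to 93.2%. With library type as a term these 4 differences turned to -19.7, -15.0, -18.6 and -1.19 points, so their direction turned with the fit.

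At 3 of the others female MEF 3 and 4 were low. The tile at chr7:112926001-112927000 was 72.5% and 84.9% methylated in iPSC, 5.62% and 21.3% in SSEA1+, 0 to 2.95% in all 4 female MEF, and 82.0% and 71.6% in male ESC. Its difference was 65.2 points in the direct fit and 62.1 points with library type as a term, where it was not called (adjusted p = 1). At chr4:153847001-153848000 the values were 80.2% and 77.0% in iPSC and 27.2% and 3.76% in SSEA1+, with female MEF at 22.7% to 30.8%, and this tile alone of the 8 was called with library type as a term (55.1 points, adjusted p = 0.00308). The tile at chr2:28770001-28771000, 1687 bases from the placed start of Barhl1, a homeobox regulator of neurons, read 69.8% and 74.0% against 9.18% and 21.2%, with female MEF at 1.82% to 11.8%. Its difference of 56.7 points was 48.05 points with the type term, where it was not called (adjusted p = 0.934). At this tile and the chr7 tile the size stayed near that of the direct fit while the call was lost. Size and p-value are calculated differently in the type fit, and the female MEF that serve as its link were near 0 at the chr7 tile. The lost calls therefore do not show that a difference was absent. At chr3:95697001-95698000 the iPSC samples were at 73.7% and 68.4% and SSEA1+ at 5.12% and 1.82%, and the tile could not be fitted with the type term. Female MEF 3 and 4 had only 9 reads at the CpGs that iPSC read, at 88.9% against 75% in iPSC, so as far as it was read this tile goes with the 4 whose direction turned.

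**Figure D5:**
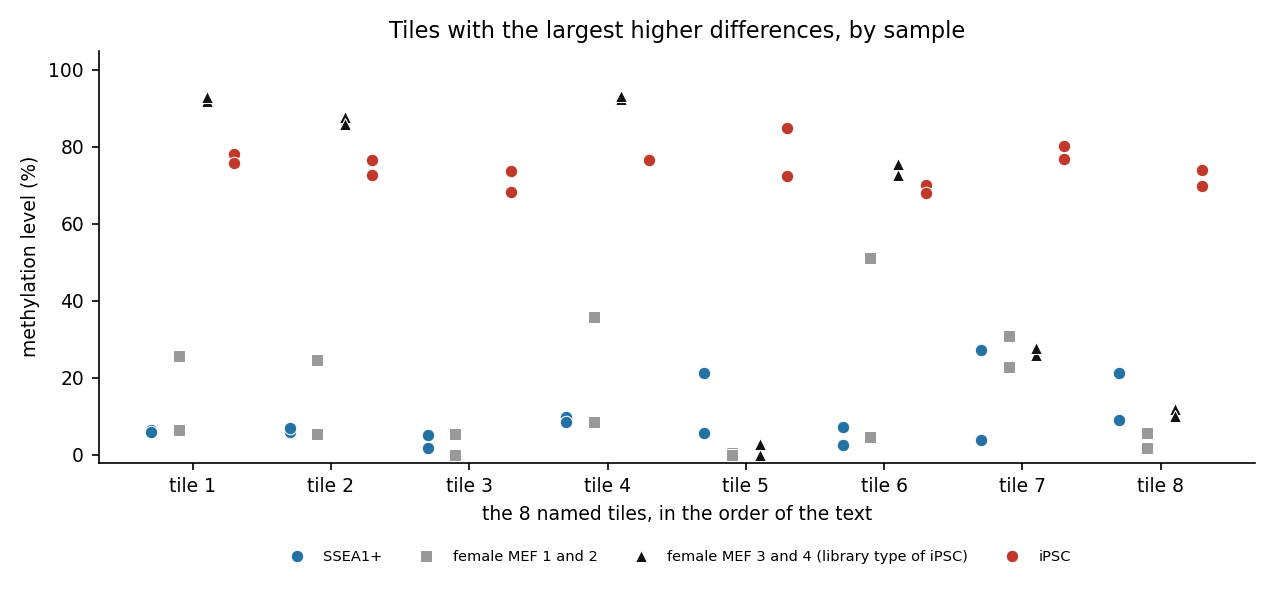
Methylation level (%, y axis) of the 8 tiles with the largest higher differences (x axis; tile 1 chr8, 2 chr6, 3 chr3, 4 chr15, 5 chr7, 6 chr1, 7 chr4, 8 chr2) in iPSC (red circles), SSEA1+ (blue circles), female MEF 1 and 2 (grey squares) and female MEF 3 and 4 (black triangles). At tiles 1, 2, 4 and 6 the black triangles lie at 72.8% to 93.2%, beside or above iPSC, and at tiles 5, 7 and 8 they lie at 0 to 27.7%.

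At start sites, 127 tiles (1.96%) were called higher, 20 with library type as a term and 13 in both fits. Of the 127, 71 were among the 6020 start-site tiles under 10% in the mean of female MEF, which is taken over all CpGs that each MEF library read. At the CpGs that the iPSC libraries read, 120 could be set against female MEF 3 and 4, with a median of 30.8% in iPSC and 16.7% in those MEF, and 33.3% of them were at least 20 points higher in iPSC. Arhgef1 (chr7:25688001-25689000) read 45.8% and 44.0% in iPSC and 0.274% and 0 in SSEA1+, and Ppp1r26, a phosphatase regulator (chr2:28302001-28303000), read 40.8% and 40.1% against 1.17% and 1.52%. These were the 2 of the 8 named that were called with library type as a term. The iPSC libraries read few of their CpGs, a mean of 5.5 against 28.0 in SSEA1+ at Arhgef1 and 13.0 against 70.5 at Ppp1r26. At those CpGs female MEF 3 and 4 read 23.3% (30 reads) at Arhgef1, where iPSC read 45.2%, and 1.91% (210 reads) at Ppp1r26, where iPSC read 40.5%. Rps7, a ribosomal protein gene (chr12:29320001-29321000), read 67.3% and 50.2% against 3.91% and 0.818%, with female MEF 3 and 4 at 50.2% and 49.2%. Usf1 and Neurl3 had the same pattern in female MEF 3 and 4 (39.2% and 52.0%, 53.7% and 49.1%), and their differences of 33.6 and 33.4 points became -11.8 and -9.70 with library type as a term. Rab7 (40.2 points) was not called with that term (28.2 points, adjusted p = 0.766). Trpm7 (45.1 points) and Ski (36.6 points) could not be fitted with it. At the CpGs that iPSC read, Trpm7 was at 44.6% in iPSC and 41.2% in female MEF 3 and 4 (17 reads), the pattern of Rps7 and Usf1, and Ski had 5 reads in those MEF.

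Of the 1668 tiles with 30 or more CpGs, 34 (2.04%) were called lower and 19 (1.14%) higher, and 29 of the lower ones were recurrent. Their mean level over tiles held by all samples was 5.16% and 5.11% in iPSC and 2.45% and 2.26% in SSEA1+, beside medians of 3.20% and 3.44% in iPSC at the tiles under 1% in male libraries. With dense set at 20 or more CpGs the difference was -0.538 points. The largest higher dense tiles besides Rps7, Ppp1r26 and Ski were at chr17:66132001-66133000, 43.1% and 43.8% in iPSC with female MEF 3 and 4 at 43.1% and 40.2%, and at the start of Cdc5l, a splicing factor, and B230354K17Rik (chr17:45570001-45571000), 28.7% and 25.1% in iPSC with female MEF 3 and 4 at 2.76% and 2.09%.

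Tet3 alone was called in the direct fit among the start sites of the other gene lists, where differences ran from -19.4 to 36.2 points. Of 35 listed genes of pluripotency, 10 could be tested (Sox2, Klf2, Klf4, Fgf4, Tfcp2l1, Tet1, Tet2, Nr5a2, Trim71 and Jarid2). None of these was called, and the highest mean was 8.29% in iPSC and 5.56% in SSEA1+. At Sox2, for instance, the means were 2.95% and 5.56%. None of the 9 fibroblast and mesenchymal genes tested (of 38 listed) was called, with Twist2, a mesenchymal transcription factor, at 18.6% and 15.4% in iPSC against 1.17% and 0 in SSEA1+ (16.4 points). Nor was any tested gene of 4 other lists: 8 of 28 epithelial, 9 of 39 HOX, 12 of 39 lineage regulators (16 tiles) and 8 of 20 housekeeping genes. The listed genes that could not be tested are not covered by these counts. The tested pluripotency and fibroblast starts were low in every group, with group means of at most 16.98%, so these tiles do not tell the labelled cell types apart.

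Hoxd9 (21.2% and 19.06% against 0.513% and 3.39%) had female MEF 3 and 4 at 40.3% and 38.3%. Pgam1, a glycolytic enzyme, was the largest lower difference outside the germline and imprinted lists that was not called (1.93% and 3% against 21.5% and 22.3%), and female MEF 3 and 4 were at 0.169% and 0.383% where female MEF 1 and 2 had 25.9% and 26.1%. Among the 11 genes of the methylation machinery tested (of 20 listed), Tet3, an oxidase of methylated cytosine, was called higher, at 32.0% and 40.5% in iPSC against 0.128% and 0 in SSEA1+ (36.2 points, adjusted p = 0.000866). Female MEF 3 had 27.9% and female MEF 4 had 0 at that tile, and with library type as a term it was not called (22.7 points, adjusted p = 0.588). The other 10, among them Dnmt1, Dnmt3a, Dnmt3b, Uhrf1, Tet1 and Tet2, were not called and had iPSC means of 2.54% to 7.07%.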

How the data were processed

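Per the labels, 18 mouse samples in 7 groups (2 iPSC, 2 SSEA1+, 2 SSEA1−, 4 female MEF, 2 male MEF, 4 female ESC, 2 male ESC) were read by reduced representation bisulfite sequencing. For every CpG and strand the authors deposited the number of reads called methylated beside the total read count, on mm9 per the submitters' processing notes. Their aligner, like their filters, was not given in the sources used here. A deposited score was not used.

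Strands were added, CpGs kept at 5 reads, and reads summed over 1 kb tiles with at least 3 CpGs. A quasi-binomial model with 7 group means was fitted to each tile in all samples that held it, with the dispersion moderated as in limma and at least 1, F tests and Benjamini-Hochberg adjustment. It was tested on simulated data. Levels were compared by exact permutation tests. P-values measure the spread between samples, which may be technical. With no mm9 annotation used, RefSeq promoters (GRCm38.p6) were placed by matching their CpG spacing one by one to the CpGs of the data: 9758 promoters of 8605 genes, and 7065 genes lay in tested tiles. Of the 7968 placed by spacing alone, 99.1% had the same shift between builds as a neighbour. Sequences reversed from end to end, as a control, gave 44 placements. Exon and intron positions and chromosome 18 starts were not analysed here.

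Named tiles were the 8 largest differences in each direction (5 among tiles of 30 CpGs, 8 among start sites), called also on shared CpGs, with no overlap, 5 CpGs and 50 reads per sample and at most 1 per megabase, and every called tile of 9 gene lists. The comparison, its tiles and the lists were chosen with earlier results of these data known. Alternatives were 10 or 3 reads, 30 points, a cap of 50 reads, shared CpGs, library type, a replicate block, limma on log2 ratios with a prior count of 1, only the 4 samples, a stricter filter, own CpGs, read weights, dense at 20 CpGs and leaving out each sample. The spacing families, the alternatives for them and for the germline and imprinted counts, and the result without recurrent tiles were chosen after seeing the data. Tools were R 4.3.3 with limma 3.58.1, and Python 3.11.15 with matplotlib 3.10.9, scipy 1.17.1, pandas 2.3.3 and numpy 2.4.6.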

Additional observations from a re-analysis of the deposited data

Results flagged for a closer look

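In 122 groups of 4 samples, a single sample stood apart from the rest by Dixon's measure 8 times, and chance gives about 1 in 20. At family 3, female MEF 2 was at 91.03% and the others at 93.1% to 93.51%. Female MEF 1 was at 85.47% on chr11:5617001-5618000 (others 94.76% to 96.47%) and at 83.48% on chr3:55413001-55414000 (87.08% to 87.46%). On chr1:116454001-116455000 female MEF 4 was at 88.95% (85.85% to 86.12%). At Tet3 female MEF 3 was at 27.91% (0 to 1.225%). In female ESC, sample 4 was at 7.042% at Gm52830 (20% to 21.37%), sample 3 at 1.351% at Trpm7 (0 in the others) and sample 2 at 5.634% at Usf1 (0 to 0.8547%). None of the flagged samples is an iPSC or SSEA1+ sample, since groups of 2 were not looked at.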

How the results depend on the processing

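Tiles lower in iPSC were 8570, and 5571 at 30 points, 2178 at a minimum of 10 reads, 2608 with at least 5 CpGs and 50 reads, 5238 without recurrent tiles and 5950 to 8777 with a sample left out. Tiles higher were 1850, and 1015 at 30 points, 824 at 10 reads, 1179 on shared CpGs, 508 with library type, 474 with the stricter filter and 1408 to 1588 with a sample left out. At start sites the 61 lower became 31 at 30 points, 30 at 10 reads, 29 on shared CpGs and 37 to 67 with a sample left out, and the 127 higher 50 at 30 points, 20 with library type and 101 to 121. Lower tiles of family 1 were 498 at 10 reads and 2088 to 2119 with a sample left out. Those of family 2 were 19 at 30 points, 185 at 10 reads and 381 to 448, and those of family 3 were 137, 82, 88 with library type and 201 to 460. The 5 germline tiles were 3 at 10 reads and 4 to 5 with a sample left out. On shared CpGs none of them could be tested, and 1 other germline tile, Tex101, was called. The 3 imprinted tiles were 0 at 30 points, 1 on shared CpGs and 0 to 3. Stricter minimums and shared CpGs also leave fewer tiles tested, and the cause of the other shifts was not tested. The autosomal difference of -7.086 points turned to 6.828 over own CpGs and ran from -7.953 to -6.219 with a sample left out. That of dense tiles, 2.889, turned to -0.5379 at 20 CpGs and ran from 2.797 to 2.98. Of 48 named tiles, 6 reversed with library type, to -19.73, -15.02, -18.62, -1.188, -11.75 and -9.699 points, and over all 607 values 566 kept their call and direction, a count that the naming rule raises, since it asked for a call on shared CpGs and a minimum of CpGs and reads. Counts of lower and higher tiles were 8404 and 1792 with a replicate block. Equal numbers share only a number: the deviations of same-numbered iPSC and SSEA1+ samples correlated at 0.0299. With 2 samples a group and types that follow the groups, depth limits chiefly SSEA1+ sample 2, at a median of 63 reads per tile.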
